A study of Danio rerio with 4 samples.

Results

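The genes described here are those that license DNA for replication and those that work at the replication fork, measured as RNA in zebrafish embryos. They were chosen by symbol: names that begin with mcm, orc, gins, pola, pold, pole, prim, rfc or rpa followed by a digit, together with cdc6, cdc45, cdt1, gmnn, pcna, lig1 and fen1, with a mean FPKM of at least 1 over the 4 libraries. FPKM is a level per kilobase of gene, scaled to the library. Of 31870 gene identifiers in the deposited table, 48 had such a symbol, and all 48 passed the level filter, the lowest being pold4 with a mean of 1.10 FPKM. For comparison 15376 identifiers passed the same filter. The symbol rule also takes in mcm3ap, a scaffold of mRNA export that is not itself an MCM gene. It leaves out pole, the catalytic subunit of polymerase epsilon, which is given among the other replication genes.

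Total RNA depleted of ribosomal RNA was sequenced from 4 groups of whole embryos, with 1 library in each: wild type (WT) and the maternal ybx1 mutant (Mybx1) sampled as the newly fertilised egg (0 hours post fertilisation, hpf) and at 6 hpf. The protein of ybx1 binds RNA through a cold-shock domain. The mutant allele, the cross behind the label Mybx1 and the number of embryos or clutches in a library are not given in the sources used here. Each group has 1 library, so every comparison is between 2 libraries with no replicate check, and no test was run and no p-value is given.

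In eukaryotes an origin is licensed when the origin recognition complex (Orc) and Cdc6, with Cdt1, load the MCM helicase as a double ring on DNA, a step that geminin (gmnn) blocks by binding Cdt1. In S phase Cdc45 and the GINS complex join the helicase, Mcm10 helps to start it, polymerase alpha with primase lays down primers, and polymerases delta and epsilon extend them with the sliding clamp PCNA, which the clamp loader RFC places on DNA. RPA coats the single strands, and Fen1 and DNA ligase I join the pieces of the lagging strand. A fish embryo passes through rapid cleavage cycles of DNA replication and mitosis on products stored in the egg, before its own genome is transcribed and the cycles lengthen. In Xenopus laevis some MCM subunits have separate maternal and zygotic genes.

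The libraries held between 6042830 and 7570070 reads behind their FPKM values, and the members took up between 0.619% of them (WT at 6 hpf) and 0.845% (WT at 0 hpf). The mutated gene ybx1 was at 338 and 2287 FPKM in WT at 0 and 6 hpf and at 11.9 and 54.2 in Mybx1. As a check of the stage labels, 6 egg genes (btg4, mos, zar1, h1m, zp3b and buc) summed to 2825 FPKM in WT and 2827 in Mybx1 at 0 hpf, and at 6 hpf to 105 in WT but 1763 in Mybx1. The 5 gastrula genes that were matched (tbxta, chrd, gsc, sox3 and krt18a.1) summed to 0.855 and 1.88 FPKM at 0 hpf, and at 6 hpf to 2700.3 in WT and 84.0 in Mybx1. Of the 6 hpf sums krt18a.1 made up 2042 FPKM in WT and 77.0 in Mybx1. In Mybx1 at 6 hpf tbxta, chrd, gsc and sox3 were at 0.216, 0.101, 0.817 and 5.91 FPKM, against 325, 178, 30.2 and 125 in WT. The 6 hpf Mybx1 library thus carried egg transcripts and few gastrula ones, which moves with every difference between genotypes at 6 hpf below, and its part in them was not tested. Of adult blood, liver and muscle genes 4 of 6 were matched, with sums between 0.417 and 94.2 FPKM, of which tfa, a transferrin, made up 93.0 in WT at 6 hpf, and the 4 testis genes summed to between 0.338 and 1.31. In whole embryos, fewer cells that express a gene and less of its RNA per cell cannot be told apart.

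In the egg libraries the replication genes were abundant as a group. Their median rank among the 15376 genes was at percentile 87.3 in WT and 86.0 in Mybx1 at 0 hpf, with 20 and 19 of 48 above the 90th percentile. The 6 hpf libraries had them at percentile 75.4 (WT) and 82.4 (Mybx1). The highest member was gmnn in both 0 hpf libraries and in Mybx1 at 6 hpf, and mcm7, a subunit of the helicase, in WT at 6 hpf. The median level of the 48 genes went from 73.1 FPKM at 0 hpf to 23.8 at 6 hpf in WT and from 68.8 to 50.4 in Mybx1.

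**Figure D1:**
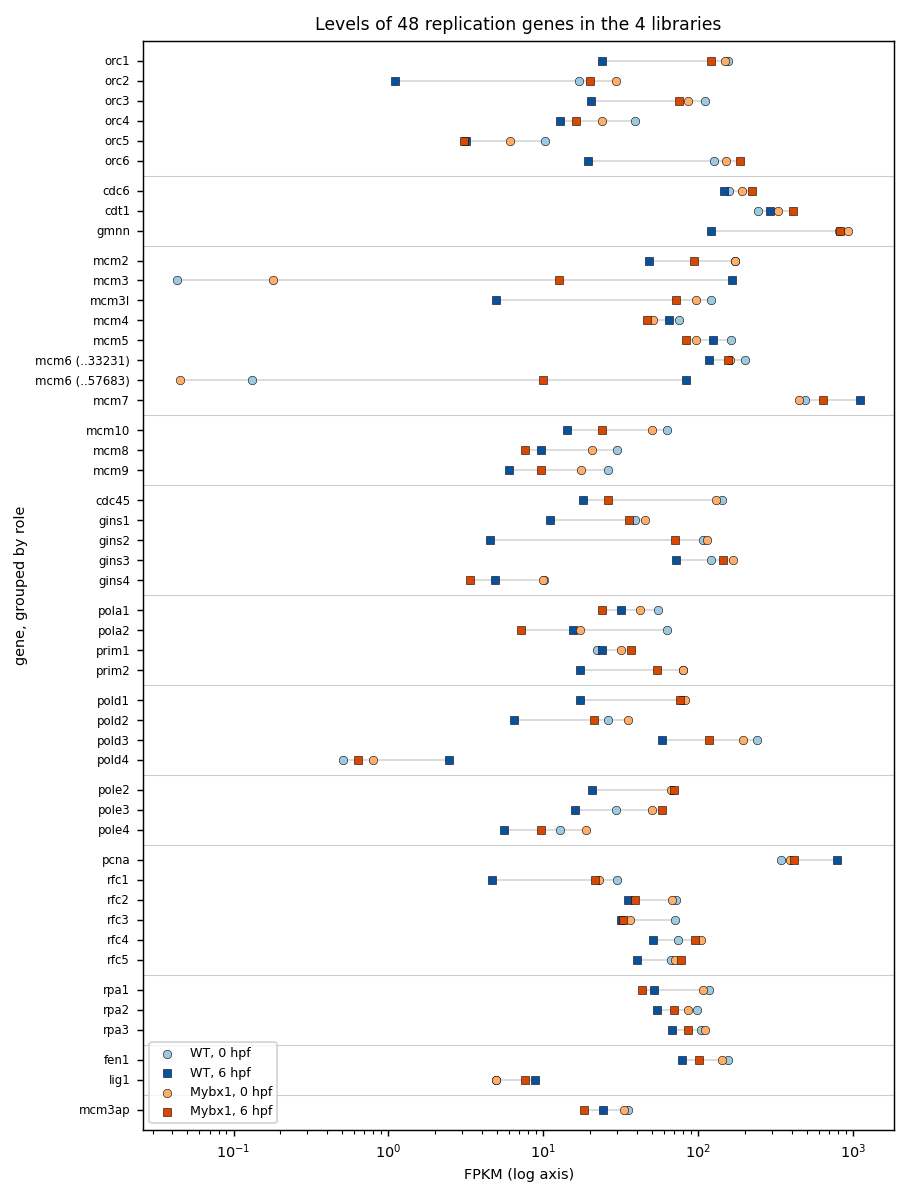
FPKM (log axis) of each of the 48 genes in the 4 libraries, grouped by role from the origin recognition complex at the top to lagging strand joining. The last row, at the bottom, is mcm3ap, which is outside these roles. Circles are 0 hpf and squares 6 hpf, blue WT and orange Mybx1, with 1 library each. The dark blue squares (WT, 6 hpf) lie left of the WT 0 hpf circles for the 26 genes that fell in WT, among others, whereas mcm3 and the second mcm6 gene are near 0 in both egg libraries and highest in WT at 6 hpf.

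Differences between libraries were taken on log2(FPKM + 1), and a gene is said to rise or fall, or to be called higher or lower, where it changed at least 2-fold on that scale. In WT, 26 of the 48 genes fell from 0 to 6 hpf and 5 rose, where 40.9% of all genes counted fell and 21.4% rose. The other 17 stayed within 2-fold, as 37.8% of all genes did. The median change of the members was -1.11, and that of all genes was -0.61. A fold given for 1 gene is its ratio of FPKM, followed by an exact 95% interval that covers counting error only. In Mybx1, 6 members fell and 2 rose, where 6.78% of all genes fell and 7.81% rose, and 40 stayed within 2-fold, as 85.4% did; the median was -0.30 against -0.05 for all genes. Put as a share of the 0 hpf level, the median member stood at 44.7% at 6 hpf in WT and at 80.8% in Mybx1. FPKM is a share of a library. Median-ratio scaling of the libraries, which sets a typical gene as unchanged, moved the median of all genes in WT to -0.02. The difference of the member median from it was then -0.40, as against -0.51 with FPKM as deposited. With that scaling 18 members fell and 6 rose, where 28.0% of all genes fell and 30.0% rose. The difference of the member median from that of all genes also depended on the level filter. With the cut-off raised to 5 FPKM, 47.7% of all genes fell in WT, with a median of -0.90. The 47 members left had a median of -1.14, a difference of -0.23. That difference was -0.54 with the filter set on the libraries compared and -1.11 with no filter.

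The 26 members that fell in WT had a median of 71.5 FPKM at 0 hpf and 16.3 at 6 hpf there, and of 67.2 and 37.3 in Mybx1. Of these 26 genes 21 (80.8%) stayed within 2-fold in Mybx1, a share near the 87.4% of all genes that fell in WT. The other 5, mcm10, mcm8, cdc45, pola2 and rpa1, fell in both genotypes with FPKM as deposited. The remaining gene that fell in Mybx1, gins4, was 2.08-fold (1.47 to 2.99) lower by FPKM ratio in WT and 2.96-fold (1.97 to 4.57) lower in Mybx1, with 4.84 and 3.37 FPKM left, and passed the threshold in Mybx1 only. None of the 48 genes rose in one genotype and fell in the other, but 40 of them stayed within 2-fold in Mybx1, as did 85.4% of all genes. The share of all genes with opposite calls was not counted. The change in Mybx1 minus that in WT had a median of 0.65 over the members and 0.52 over all genes. It was positive for 38 of 48 members (79.2%) against 63.0% of all genes. It was at least 1 for 18 members (37.5%), near the 37.0% of all genes, and at most -1 for 4 (8.33%), against 18.6%. With median-ratio scaling the member median was 0.04.

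**Figure D2:**
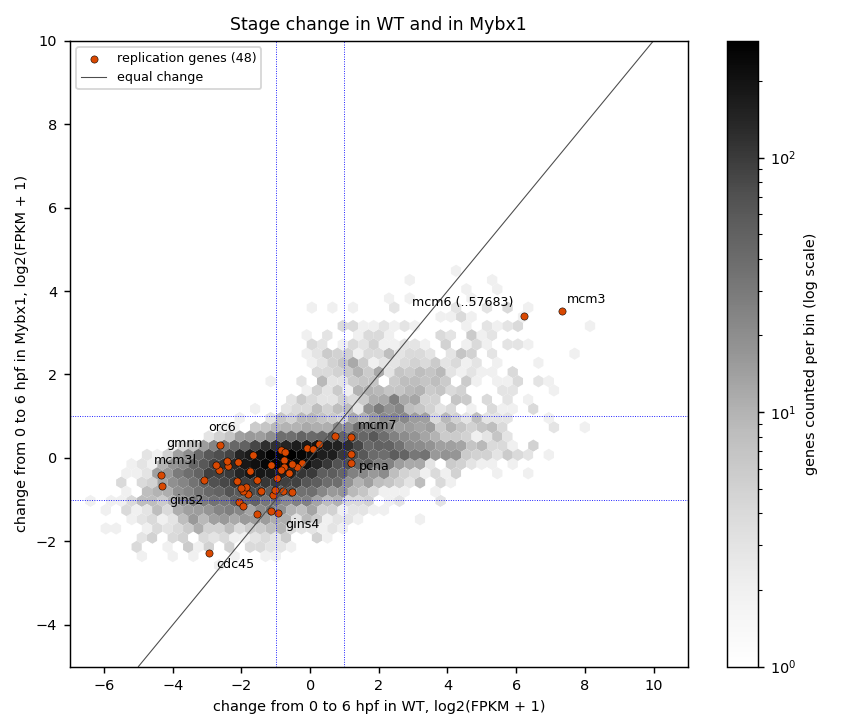
Change from 0 to 6 hpf on log2(FPKM + 1) in WT (horizontal) and in Mybx1 (vertical), with the 48 replication genes in orange over all 15376 genes in grey bins; dotted lines mark 2-fold and the diagonal marks equal change. Left of the left dotted line lie 26 orange points, of which 21 are between the horizontal ones; mcm3 and the second mcm6 gene stand at the upper right, and cdc45 falls in both genotypes.

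All 6 genes of the origin recognition complex fell in WT and all 6 stayed within 2-fold in Mybx1, where 40.9% of all genes fell in WT and 87.4% of those stayed within 2-fold in Mybx1. The gene of its largest subunit, orc1, was at 157 FPKM at 0 hpf and 23.9 at 6 hpf in WT, and 148 and 121 in Mybx1. It fell 6.56-fold (5.88 to 7.34) in WT and stood 1.23-fold (1.16 to 1.31) lower at 6 hpf in Mybx1. The level of orc6 was 127 FPKM at 0 hpf and 19.5 at 6 hpf in WT, and 151 and 186 in Mybx1. The WT library at 6 hpf was thus the lowest of the 4 for both genes, and for orc6 the Mybx1 library at 6 hpf was the highest. In WT orc6 fell 6.49-fold (5.61 to 7.54), and orc2, with only 7 reads left at 6 hpf (1.10 FPKM, from 16.9), fell 15.4-fold (7.28 to 39.1). The level of orc3 went from 109.9 to 20.2 FPKM in WT and from 85.6 to 74.6 in Mybx1. At 6 hpf the levels of orc4 and orc5 were closer between the genotypes than those of the other subunits: orc4 went from 39.3 to 12.8 FPKM in WT and from 24.0 to 16.3 in Mybx1, and orc5 from 10.3 to 3.16 and from 6.06 to 3.07. With median-ratio scaling the WT changes of orc4 (-0.84) and orc5 (-0.83) no longer reached 2-fold, and those of orc1 (-1.95), orc2 (-2.61), orc3 (-1.67) and orc6 (-1.92) did. Summed over the complex, 459.7 FPKM in WT at 0 hpf became 80.7 at 6 hpf, and 444 in Mybx1 became 421.

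The 3 licensing factors did not move together. Geminin, the inhibitor, was the most abundant member in the egg, with gmnn at 813 FPKM at 0 hpf and 122 at 6 hpf in WT, and 925 and 828 in Mybx1. It fell 6.69-fold (6.17 to 7.26) in WT, and in Mybx1 it was 1.12-fold (1.07 to 1.16) lower at 6 hpf. Only the WT library at 6 hpf was low. Its target cdt1, which brings the helicase to the origin, was at 244 FPKM at 0 hpf and 289.7 at 6 hpf in WT, and 326 and 409 in Mybx1, and cdc6, the ATPase that works with it, was at 158 FPKM at 0 hpf and 147 at 6 hpf in WT, and 191 and 224 in Mybx1. Both stayed within 2-fold in both genotypes and were highest in Mybx1 at 6 hpf. The ratio of gmnn to cdt1 levels, which no scaling between libraries can alter, went from 3.33 at 0 hpf to 0.420 at 6 hpf in WT and from 2.83 to 2.03 in Mybx1.

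The helicase itself showed an exchange between related genes in WT that was mostly absent in Mybx1. Zebrafish has 2 genes for Mcm3: mcm3l, which the RefSeq gene table lists with the synonym MCM3m, and mcm3, with the synonym MCM3z. The level of mcm3l was 120.1 FPKM at 0 hpf and 4.93 at 6 hpf in WT, and 96.2 and 72.3 in Mybx1. The level of mcm3 was 0.043 FPKM at 0 hpf and 166 at 6 hpf in WT, and 0.179 and 12.6 in Mybx1. The egg of both genotypes thus held mcm3l nearly alone (1 read of mcm3 in WT and 4 in Mybx1), WT at 6 hpf held mcm3 nearly alone, and Mybx1 at 6 hpf held mostly mcm3l. In WT mcm3l fell 24.4-fold (19.5 to 30.7) and mcm3 rose 3851-fold (691 to 152167), the wide interval being due to the single read at 0 hpf. In Mybx1 mcm3 rose 70.7-fold (27.2 to 262), and mcm3l was 1.33-fold (1.24 to 1.43) lower at 6 hpf. The share of mcm3 in the summed level of the pair was 0.036% in WT at 0 hpf, 97.1% (96.4 to 97.7, exact binomial 95% interval) in WT at 6 hpf, 0.186% in Mybx1 at 0 hpf and 14.9% (13.2 to 16.8) in Mybx1 at 6 hpf. The summed level was 120.1, 171, 96.4 and 84.9 FPKM in the same order.

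A similar pair carries the symbol mcm6. The RefSeq table holds mcm6 (synonym MCM6z) and mcm6l (synonym MCM6m), but the tables do not pair the identifiers ENSDARG00000033231 and ENSDARG00000057683, both named mcm6, with these 2 genes, so they are given by identifier. The first, ENSDARG00000033231, was at 200.1 FPKM at 0 hpf and 117 at 6 hpf in WT, and 161 and 157 in Mybx1. The second, ENSDARG00000057683, was at 0.131 FPKM at 0 hpf and 83.8 at 6 hpf in WT, and 0.045 and 9.98 in Mybx1. As with mcm3, the second gene was near 0 in both eggs, with 3 reads in WT and 1 in Mybx1, and highest in WT at 6 hpf, but the first gene stayed abundant in all 4 libraries. The second gene rose 642-fold (219 to 3115) in WT and 221-fold (39.2 to 8783) in Mybx1, while the first was 1.71-fold (1.61 to 1.82) lower at 6 hpf in WT and 1.03-fold (0.968 to 1.10) lower in Mybx1. The second gene made up 41.8% (40.0 to 43.5) of the pair at 6 hpf in WT and 5.99% (5.16 to 6.91) in Mybx1. The summed level was 200.2 and 201 FPKM in WT and 161 and 167 in Mybx1, at 0 and 6 hpf. The sources used here do not give how reads that fit both genes of a pair were counted, and a small part of each level could belong to the other gene.

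**Figure D3:**
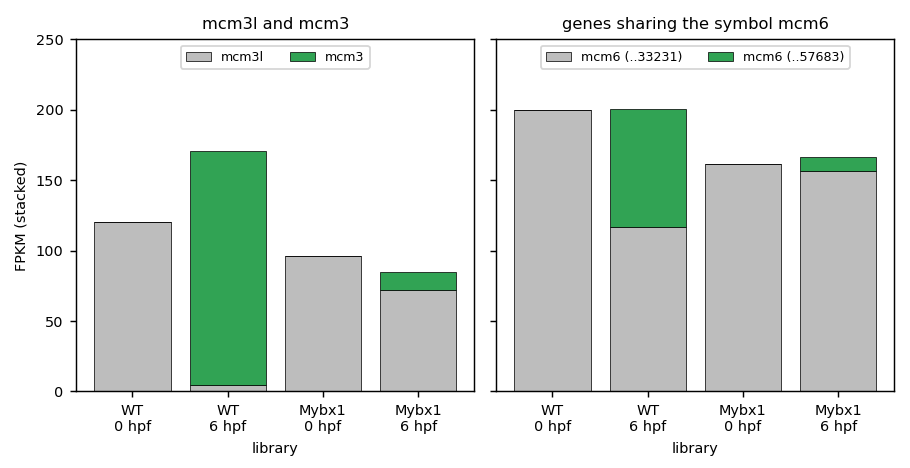
Stacked FPKM of mcm3l and mcm3 (left) and of the 2 identifiers with the symbol mcm6 (right) in the 4 libraries, with no replicates; in green the gene that is near 0 at 0 hpf. Green makes up 97.1% of the left pair and 41.8% of the right pair in WT at 6 hpf, and 14.9% and 5.99% in Mybx1.

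Of the other helicase subunits, mcm7 was the most abundant in every library, at 491 FPKM at 0 hpf and 1111 at 6 hpf in WT, and 450.0 and 641 in Mybx1. It rose 2.26-fold (2.17 to 2.36) in WT and was 1.43-fold (1.36 to 1.5) higher at 6 hpf in Mybx1. With TPM scaling, which sets the FPKM of each library to the same sum, the WT change of mcm7 was 0.91 and short of 2-fold. The level of mcm2 was 173 FPKM at 0 hpf and 48.2 at 6 hpf in WT, and 172 and 94.0 in Mybx1. It fell 3.59-fold (3.33 to 3.86) in WT and was 1.83-fold (1.73 to 1.94) lower at 6 hpf in Mybx1, short of the threshold. Both mcm4 and mcm5 stayed within 2-fold in every comparison: mcm4 was at 75.4 FPKM at 0 hpf and 64.3 at 6 hpf in WT, and 50.8 and 46.9 in Mybx1, and mcm5 at 164 FPKM at 0 hpf and 125 at 6 hpf in WT, and 96.2 and 83.2 in Mybx1. With the paralogs summed and mcm7 left aside, the 5 other subunits lay within 2.66-fold of each other in WT at 0 hpf, 4.17-fold in WT at 6 hpf, 3.39-fold in Mybx1 at 0 hpf and 3.55-fold in Mybx1 at 6 hpf, as levels per length. The level of mcm7 was between 2.45 and 5.54 times that of the highest of them.

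Of the 6 genes of the steps that start the helicase (cdc45, the GINS genes and mcm10), 4 fell in WT, where 40.9% of all genes fell. In Mybx1 3 fell, not all the same ones, where 6.78% of all genes did. Cdc45, which closes the helicase ring with GINS, had the largest fall of any member in Mybx1: cdc45 was at 143 FPKM at 0 hpf and 17.9 at 6 hpf in WT, and 131 and 26.2 in Mybx1. It fell 7.99-fold (7.01 to 9.15) in WT and 5.0-fold (4.47 to 5.62) in Mybx1, so both 6 hpf libraries were low. A subunit of the same assembly, gins2, was at 108 FPKM at 0 hpf and 4.51 at 6 hpf in WT, and 115 and 71.2 in Mybx1. It fell 23.9-fold (15.9 to 37.6) in WT, to 24 reads, whereas it was 1.61-fold (1.42 to 1.83) lower in Mybx1. The level of gins1 went from 39.0 to 11 FPKM in WT and from 45.1 to 35.8 in Mybx1, and that of gins3 from 121 to 71.6 and from 168 to 145. The calls of the 4 GINS subunits, which work as 1 complex, therefore differed: gins1 and gins2 fell in WT, gins3 did not pass in either genotype, and gins4, the least abundant, passed in Mybx1 only. By FPKM ratio gins4 was also 2.08-fold (1.47 to 2.99) lower in WT, and this interval overlaps that in Mybx1 (2.96-fold, 1.97 to 4.57). The gene mcm10 fell in both, 4.41-fold (3.85 to 5.07) in WT and 2.11-fold (1.88 to 2.37) in Mybx1, although with median-ratio scaling its change in Mybx1 was -0.97. Of the pair mcm8 and mcm9, a helicase of recombination repair, mcm8 fell 3.10-fold (2.56 to 3.77) in WT and 2.74-fold (2.19 to 3.46) in Mybx1. With median-ratio scaling the WT change of mcm8 was -0.85, short of 2-fold. The gene mcm9 fell 4.33-fold (3.62 to 5.20) in WT and was 1.80-fold (1.53 to 2.11) lower at 6 hpf in Mybx1.

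All 5 subunit genes of polymerases delta and epsilon that fell in WT (pold1, pold2, pold3, pole2 and pole4) stayed within 2-fold in Mybx1, as did 87.4% of all genes that fell in WT. The catalytic subunit of polymerase delta, pold1, was at 77.3 FPKM at 0 hpf and 17.2 at 6 hpf in WT, and 81.7 and 76.4 in Mybx1. It fell 4.50-fold (4.03 to 5.03) in WT and was 1.07-fold (1.002 to 1.14) lower in Mybx1. Of its accessory subunits pold2 fell 4.06-fold (2.98 to 5.61) and pold3 4.10-fold (3.61 to 4.66) in WT, and in Mybx1 they were 1.65-fold (1.36 to 2.01) and 1.66-fold (1.5 to 1.84) lower. The small subunit gene pold4 had only 2 to 8 reads per library, and its call as a rise in WT, to 2.47 FPKM, is within counting error at 4.85-fold (0.968 to 46.9). Of the small subunits of polymerase epsilon, pole2 was at 67.3 FPKM at 0 hpf and 20.5 at 6 hpf in WT, and 67.0 and 69.9 in Mybx1. It fell 3.29-fold (2.74 to 3.97) in WT alone. The histone-fold subunit pole4 fell 2.32-fold (1.55 to 3.57) in WT and was 1.94-fold (1.41 to 2.70) lower in Mybx1, and pole3, its partner, stood at 29.6 and 15.9 FPKM in WT and at 50.6 and 57.9 in Mybx1. With median-ratio scaling neither pole2 (-0.96) nor pole4 (-0.43) reached 2-fold in WT.

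Polymerase alpha and primase held the one member called higher or lower between the eggs with FPKM as deposited. The accessory subunit pola2 was at 63.0 FPKM at 0 hpf and 15.4 at 6 hpf in WT, and 17.3 and 7.22 in Mybx1. At 0 hpf it was 3.65-fold (3.18 to 4.21) lower in Mybx1, and it fell in both genotypes, 4.08-fold (3.50 to 4.79) in WT and 2.39-fold (1.87 to 3.08) in Mybx1. Its catalytic partner pola1 was at 55.1 FPKM at 0 hpf and 31.7 at 6 hpf in WT, and 41.8 and 23.8 in Mybx1, and was 1.74-fold (1.61 to 1.88) lower at 6 hpf in WT and 1.76-fold (1.61 to 1.92) lower in Mybx1. With FPKM as deposited, both subunits were thus lower at 6 hpf in either genotype, pola1 by almost the same ratio. With median-ratio scaling the change of pola1 was -0.06 in WT and -0.72 in Mybx1. The large primase subunit prim2 fell 4.61-fold (3.84 to 5.56) in WT, from 79.7 to 17.3 FPKM, and went from 79.2 to 54.0 in Mybx1. The primase catalytic subunit prim1 stayed between 22.3 and 36.7 FPKM in the 4 libraries.

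The clamp gene and the gene of the large loader subunit went apart in WT. The level of pcna was 344 FPKM at 0 hpf and 791 at 6 hpf in WT, and 388 and 415 in Mybx1. It rose 2.30-fold (2.2 to 2.39) in WT, where TPM scaling left a change of 0.93 that is short of 2-fold, and was 1.07-fold (1.02 to 1.12) higher in Mybx1. Only the WT library at 6 hpf was high. The large loader subunit rfc1 was at 29.7 FPKM at 0 hpf and 4.69 at 6 hpf in WT, and 22.7 and 21.5 in Mybx1, and fell 6.34-fold (4.91 to 8.30) in WT. Of the 4 small loader subunits rfc2 fell 2.05-fold (1.76 to 2.39) and rfc3 2.24-fold (1.92 to 2.63) in WT, and rfc4 and rfc5 did not pass the threshold there. None of the 5 loader genes passed it in Mybx1, where 85.4% of all genes stayed within 2-fold. With median-ratio scaling rfc2 (-0.29) and rfc3 (-0.42) did not pass in WT, and rfc4 (0.20) and rfc5 (0.001) turned to just above their 0 hpf level.

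The single-strand binding complex had subunits at similar levels in the WT egg. In WT at 0 hpf rpa1, rpa2 and rpa3 stood at 116, 98.4 and 104 FPKM, within 1.18-fold of each other. In WT at 6 hpf they were at 52.1, 53.9 and 67.5. In Mybx1 at 6 hpf they were at 43.6, 69.4 and 85.4, 1.96-fold apart. Only rpa1, the large subunit, passed the threshold, and it did so in both genotypes, falling 2.24-fold (2.06 to 2.43) in WT and 2.46-fold (2.25 to 2.70) in Mybx1; with median-ratio scaling its WT change was -0.42. The flap nuclease gene fen1 was at 155 FPKM at 0 hpf and 79.0 at 6 hpf in WT, and 143 and 102 in Mybx1, and the DNA ligase gene lig1 at 4.93 FPKM at 0 hpf and 8.77 at 6 hpf in WT, and 4.92 and 7.57 in Mybx1. Neither passed the threshold in any comparison, though lig1 was lower in both eggs than at 6 hpf, and with median-ratio scaling its WT change was 1.38. The export factor mcm3ap was at 35.4 FPKM at 0 hpf and 24.2 at 6 hpf in WT, and 32.9 and 18.4 in Mybx1, within 2-fold throughout.

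Between the eggs of the 2 genotypes the replication genes differed little. At 0 hpf none of the 48 was called higher in Mybx1 and 1, pola2, was called lower, where 8.2% of all genes were higher and 6.03% lower. The other 47 were within 2-fold, as were 85.8% of all genes. The median difference was -0.05 over the members and 0.06 over all genes. After pola2 the largest differences short of the threshold were those of rfc3 (71.1 FPKM in WT and 36.5 in Mybx1, lower 1.95-fold, 1.69 to 2.25), mcm5 (lower 1.70-fold, 1.61 to 1.80), orc2 (higher 1.73-fold, 1.39 to 2.17) and pole3 (higher 1.71-fold, 1.47 to 1.99). With median-ratio scaling rfc3 passed the threshold as well (-1.03).

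At 6 hpf, 15 of the 48 genes were higher in Mybx1 than in WT and 3 were lower, where 39.6% of all genes were higher and 19.1% lower. The other 30 were within 2-fold, as were 41.4% of all genes. The median difference was 0.57 over the members and 0.58 over all genes. The 15 were orc1, orc2, orc3, orc6, gmnn, mcm3l, gins1, gins2, gins3, prim2, pold1, pold2, pole2, pole3 and rfc1. The largest differences were those of orc2 (18.3-fold, 8.62 to 46.4), gins2 (15.8-fold, 10.4 to 25.0), mcm3l (14.7-fold, 11.7 to 18.6), orc6 (9.53-fold, 8.25 to 11.1), gmnn (6.81-fold, 6.28 to 7.40) and orc1 (5.05-fold, 4.51 to 5.67). The 3 lower genes were mcm3, 13.1-fold (11.5 to 15.1) lower, the mcm6 gene ENSDARG00000057683, 8.40-fold (7.20 to 9.84) lower, and pold4, whose interval includes equal levels (3.87-fold, 0.773 to 37.4). Further genes below WT by less than the threshold were pcna (lower 1.90-fold, 1.83 to 1.99), mcm7 (lower 1.73-fold, 1.66 to 1.80) and mcm5 (lower 1.5-fold, 1.40 to 1.61), and pola2 (lower 2.13-fold, 1.65 to 2.78) was just inside the threshold on log2(FPKM + 1). This comparison shares its WT library with the WT stage change and its Mybx1 library with the Mybx1 stage change, so it is no separate evidence of either.

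The direction of the 6 hpf difference depended on the scaling for the group and for many members. Median-ratio scaling took the median over all genes from 0.58 to -0.06, and that of the members turned from 0.57 to -0.18. With it 10 members were higher and 12 lower in Mybx1, where 26.1% of all genes were higher and 30.2% lower. The 10 that stayed higher included mcm3l (2.95), gins2 (3.04), orc2 (2.82), orc6 (2.45), gmnn (2.0) and orc1 (1.55). The 12 lower ones included mcm3 (-4.35), the mcm6 gene ENSDARG00000057683 (-3.68), pola2 (-1.70), pcna (-1.69), mcm7 (-1.55), mcm5 (-1.33) and mcm4 (-1.19). With TPM scaling 19 were higher and 3 lower, where 45.6% of all genes were higher and 17.2% lower. In all 13 members turned from above to below WT with median-ratio scaling, none of them past 2-fold as deposited: orc4, cdc6, cdt1, the mcm6 gene ENSDARG00000033231, mcm9, mcm10, cdc45, prim1, rfc2, rfc3, rpa2, rpa3 and fen1. With TPM scaling orc5 and lig1 turned from below to above it. The same scalings turned few stage changes: in WT, median-ratio scaling turned cdc6, mcm4, mcm5, mcm3ap, rfc4, rfc5 and rpa3 from below to above their 0 hpf level, and TPM scaling turned cdt1 and prim1 from above to below it. In Mybx1 the mcm6 gene ENSDARG00000033231, nearly level, turned with median-ratio scaling. How many of all genes turned was not counted, but their median at 6 hpf turned with median-ratio scaling as that of the members did.

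**Figure D4:**
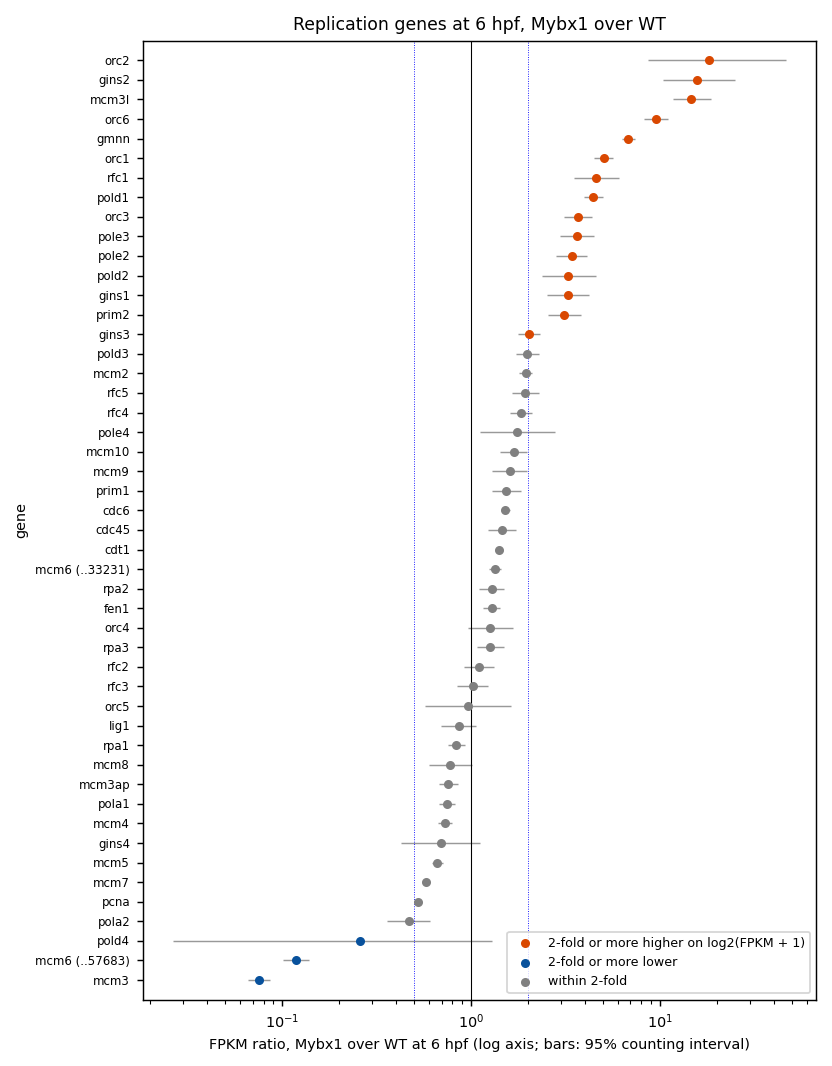
FPKM in Mybx1 over that in WT at 6 hpf (log axis) for the 48 genes in order of the ratio, with bars for the exact 95% counting interval and dotted lines at 2-fold; 1 library each. The ratios run from orc2, 18.3-fold higher in Mybx1, to mcm3, 13.1-fold lower, with FPKM as deposited; with median-ratio scaling the middle of the order moves below equal levels.

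Other genes of replication were read from 6 further lists, whose counts stand beside those of all genes. From 0 to 6 hpf 40.9% of all genes fell and 21.4% rose in WT, and 6.78% fell and 7.81% rose in Mybx1, with medians of -0.61 and -0.05. With median-ratio scaling 28.0% fell and 30.0% rose in WT. At 6 hpf 39.6% of all genes were higher in Mybx1 and 19.1% lower, and with median-ratio scaling 26.1% and 30.2%. Of the regulators of origin firing and of the fork, 18 of 21 were matched and counted. In WT 11 fell and 1 rose (median -1.09), and in Mybx1 3 fell and none rose (median -0.36), where 40.9% and 6.78% of all genes fell. With median-ratio scaling 5 fell and 1 rose (median -0.44) in WT. The gene recql4, a helicase needed to start replication, was at 31.9 FPKM at 0 hpf and 2.68 at 6 hpf in WT, and 30.3 and 28.5 in Mybx1, and fell 11.9-fold (9.46 to 15.2) in WT. The only riser was dbf4, the activating subunit of the Cdc7 kinase, at 2.95 FPKM at 0 hpf and 30.5 at 6 hpf in WT, and 2.57 and 2.98 in Mybx1, a rise of 10.4-fold (7.87 to 13.9) in WT. Its relative dbf4b, the form known from Xenopus eggs, was at 31.1 FPKM at 0 hpf and 9.62 at 6 hpf in WT, and 10.8 and 10.5 in Mybx1. In WT dbf4b fell 3.23-fold (2.80 to 3.73) and dbf4 took its place as the higher of the pair, whereas in Mybx1 dbf4b was 2.88-fold (2.53 to 3.28) lower than in WT already at 0 hpf and remained the higher of the pair at 6 hpf. Other falls in WT were those of mtbp, which works in origin firing (8.08-fold, 6.78 to 9.70), and dscc1, a subunit of another clamp loader (8.91-fold, 5.69 to 14.7), while topbp1, a scaffold of origin firing, went from 24.9 to 12 FPKM in WT and from 22.9 to 14.3 in Mybx1, and pole from 18.8 to 13.7 and from 19.2 to 11.1. In Mybx1 the 3 falls were those of mtbp, dna2, a nuclease of the lagging strand (2.43-fold, 2.25 to 2.63), and chtf8, a partner of dscc1 (2.41-fold, 1.48 to 4.06). Both dna2 and chtf8 fell in WT as well, from 98.7 to 17.7 FPKM and from 6.00 to 2.50. At 6 hpf 6 of the 18 were higher in Mybx1 and 1, dbf4, was lower (median 0.41). With FPKM as deposited recql4 was 10.6-fold (8.42 to 13.6) and the helicase gene rtel1 4.27-fold (3.46 to 5.32) higher. Median-ratio scaling gave 1 lower and 3 higher (median -0.34). The regulator ticrr was not analysed here.

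Of 11 counted genes of the replication checkpoint 8 fell and 1 rose in WT (median -2.38) and 4 fell and 1 rose in Mybx1 (median -0.23), where 40.9% and 6.78% of all genes fell. In WT a pair of related genes changed places. The kinase gene wee2, known for its role in mammalian oocytes, was at 177 FPKM at 0 hpf and 10.1 at 6 hpf in WT, and 165 and 154 in Mybx1, and wee1, its relative in dividing cells, at 3.84 FPKM at 0 hpf and 73.3 at 6 hpf in WT, and 0.597 and 16.4 in Mybx1. In WT wee2 fell 17.4-fold (14.3 to 21.5) and wee1 rose 19.1-fold (15.6 to 23.6), and in Mybx1 wee1 rose 27.4-fold (16.4 to 49.5) while wee2 was 1.07-fold (1.003 to 1.15) lower. In Mybx1 at 6 hpf both were present, with wee2 the higher. The checkpoint kinase chek1 fell in both, 4.95-fold (4.0 to 6.19) in WT and 2.21-fold (1.87 to 2.61) in Mybx1, and atrip, the partner of the kinase Atr, fell 10.4-fold (8.05 to 13.7) in WT but was 1.17-fold (1.06 to 1.30) lower in Mybx1. The gene of Atr itself, atr, fell 12.7-fold (9.61 to 17.0) in WT and went from 10.7 to 7.39 FPKM in Mybx1. Some genes of the checkpoint clamp and its loader fell in Mybx1 too, rad17 by 2.82-fold (2.38 to 3.37) and rad1 by 2.45-fold (1.96 to 3.08). Of the other clamp genes counted, HUS1 fell there from 25.5 to 11.4 FPKM, and rad9a, from 25.1 to 22.2, stayed within 2-fold. At 6 hpf 7 of the 11 were higher in Mybx1 and 1, wee1, was lower (median 1.30), and with median-ratio scaling the list had 1 lower and 4 higher (median 0.65). The clamp gene HUS1 was among the 7, at 1.96 FPKM in WT and 11.4 in Mybx1. At 0 hpf wee1 alone was called, 6.43-fold (3.72 to 11.9) lower in Mybx1.

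Of 19 counted genes of nucleotide supply 10 fell and 2 rose in WT (median -1.11) and 2 fell and none rose in Mybx1 (median -0.15), where 40.9% and 6.78% of all genes fell. With median-ratio scaling 6 fell and 3 rose (median -0.41) in WT. In WT umps, an enzyme of pyrimidine synthesis, fell 5.17-fold (4.61 to 5.82), gart, of purine synthesis, 4.88-fold (4.17 to 5.74), impdh2, of guanine nucleotide synthesis, 4.51-fold (3.97 to 5.15), and tyms, thymidylate synthase, 4.23-fold (3.59 to 5.01). The purine enzyme paics rose 2.44-fold (2.21 to 2.70) in WT, from 36.9 to 90.1 FPKM, and stood at 34.9 and 36.6 in Mybx1. Subunits of ribonucleotide reductase, which makes deoxynucleotides, behaved otherwise: rrm1 was at 117 FPKM at 0 hpf and 135 at 6 hpf in WT, and 97.1 and 59.8 in Mybx1. Its small subunit gene RRM2 stands for 2 identifiers, ENSDARG00000020711 with 151 and 150.1 FPKM in WT and 95.5 and 127 in Mybx1, and ENSDARG00000078069 with 40.3 and 83.6 in WT and 63.7 and 67.0 in Mybx1. The salvage kinase gene dck fell in both genotypes, from 5.04 to 1.28 FPKM in WT and from 8.63 to 1.32 in Mybx1, and so did the mitochondrial kinase gene tk2 (21.7 to 5.05 and 40.9 to 14.9). At 0 hpf tyms was 2.09-fold (1.86 to 2.36) lower in Mybx1 and rrm2b, a further reductase subunit, 2.75-fold (2.11 to 3.63) lower. At 6 hpf 7 of the 19 were higher and 3 lower in Mybx1 (median 0.78), with umps 3.81-fold (3.37 to 4.30) higher, but with median-ratio scaling the balance turned to 5 lower and 1 higher (median 0.06).

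In the E2F and RB pathway, which controls transcription of many replication genes at the start of S phase, 5 fell and 5 rose of 17 counted genes in WT (median 0.59), and none fell and 2 rose in Mybx1 (median 0.02), where 21.4% and 7.81% of all genes rose. The even split in WT held for FPKM as deposited: with median-ratio scaling 2 fell and 9 rose (median 1.18). The repressor gene e2f7 rose in both, from 0.061 to 12.1 FPKM in WT and from 0.191 to 24.8 in Mybx1. The activator gene e2f2 was at 2.02 FPKM at 0 hpf and 28.5 at 6 hpf in WT, and 0.715 and 1.73 in Mybx1, and rbl1, a relative of rb1, at 3.48 FPKM at 0 hpf and 23.6 at 6 hpf in WT, and 2.51 and 5.46 in Mybx1. Both rose in WT, e2f2 14.1-fold (10.3 to 19.6) and rbl1 6.79-fold (5.33 to 8.74), and neither passed the threshold in Mybx1. The level of e2f1 was low throughout, between 2.54 and 5.59 FPKM, and e2f5 fell 8.52-fold (5.85 to 12.8) in WT, from 21.5 to 2.53 FPKM. The other gene that rose in Mybx1 was rbl2, from 0.17 to 3.35 FPKM. At 0 hpf e2f4 was 2.32-fold (1.88 to 2.88) higher in Mybx1 and tfdp2, an E2F partner, 2.54-fold (1.61 to 4.11) lower. At 6 hpf 4 of the 17 were higher and 4 lower in Mybx1 (median 0.22). With FPKM as deposited e2f2 was 16.5-fold (11.4 to 24.7) lower. On the same values e2f5 was 7.95-fold (5.42 to 12.1) higher and lin37, of the DREAM complex, 2.68-fold (2.16 to 3.34) higher. With median-ratio scaling the list turned to 6 lower and 1 higher (median -0.52).

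Of 9 counted genes of replication-coupled chromatin 4 fell and none rose in WT (median -0.63) and 4 fell and none rose in Mybx1 (median -0.82), where 40.9% and 6.78% of all genes fell. With median-ratio scaling 3 fell and 1 rose (median 0.09) in WT. The largest fall in WT was that of slbp2, a histone mRNA binding protein gene known from Xenopus oocytes. It was at 402 FPKM at 0 hpf and 7.48 at 6 hpf in WT, and 519 and 163 in Mybx1. The maintenance DNA methyltransferase gene dnmt1 was at 418 FPKM at 0 hpf and 43.7 at 6 hpf in WT, and 545 and 307 in Mybx1. It fell 9.56-fold (9.04 to 10.1) in WT, and nasp, a histone chaperone, fell in both genotypes, 5.45-fold (5.18 to 5.73) in WT and 2.53-fold (2.44 to 2.64) in Mybx1. Lower in Mybx1 than in WT at both stages were hells, a chromatin remodeller, at 91.1 FPKM at 0 hpf and 27.3 at 6 hpf in WT, and 10.4 and 3.73 in Mybx1, and rbbp4, a histone-binding subunit of the chromatin assembly factor, at 144 FPKM at 0 hpf and 150.0 at 6 hpf in WT, and 52.7 and 15.3 in Mybx1. At 0 hpf the difference was 8.75-fold (7.68 to 10.01) for hells and 2.74-fold (2.53 to 2.97) for rbbp4. The change of rbbp4 from 0 to 6 hpf was -1.72 in Mybx1, the largest fall of the list there, and 0.05 in WT. Of 9 genes of the ubiquitin ligases that act on licensing factors 3 fell and none rose in WT (median -0.58) and none passed in Mybx1 (median -0.28), where 40.9% of all genes fell in WT and 85.4% were within 2-fold in Mybx1. The receptor that marks Cdt1 for destruction, dtl, was at 105 FPKM at 0 hpf and 29.4 at 6 hpf in WT, and 104 and 75.0 in Mybx1, 3.56-fold (3.21 to 3.96) lower at 6 hpf in WT. With median-ratio scaling 2 fell and 1 rose (median 0.16) in WT. The other falls in WT were those of cul4a, the scaffold of that ligase, from 60.2 to 20.6 FPKM, and fzr1b, an activator of the anaphase-promoting complex, from 1.77 to 0.148. The fall of fzr1b rests on 29 reads at 0 hpf and 2 at 6 hpf.

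**Figure D5:**
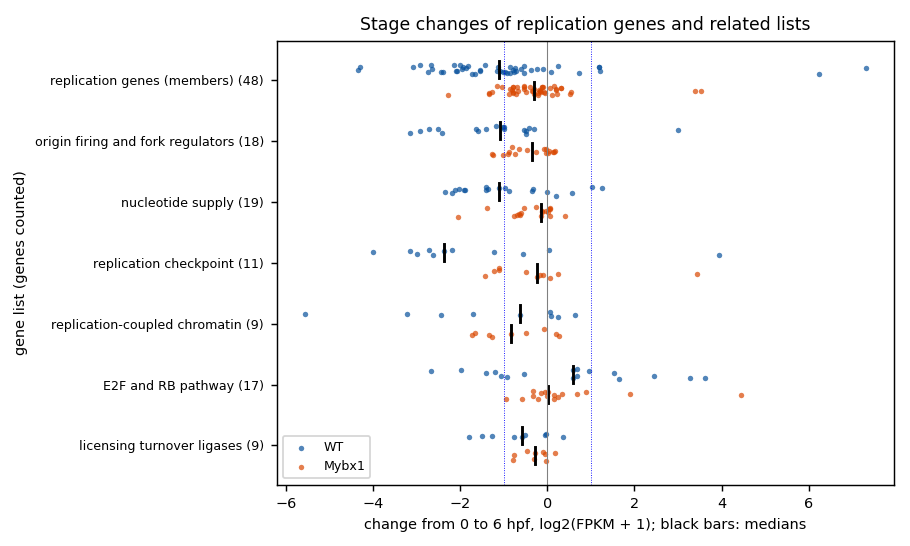
Change from 0 to 6 hpf on log2(FPKM + 1) of each counted gene in the replication genes and the 6 further lists, in WT (blue) and Mybx1 (orange), with black bars at the medians and dotted lines at 2-fold. The medians in WT lie below 0 except for the E2F and RB list (0.59), and the orange points crowd within 2-fold; the blue medians depend on scaling, since with median-ratio scaling those of the chromatin and ligase lists turn to 0.09 and 0.16.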

How the data were processed

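RNA of 4 whole-embryo samples was measured, 1 per group. The authors deposited FPKM values, 1 column per library, with 0 columns of other samples; per the submitters' processing notes, the build GRCz10 and the tools HTSeq 0.6.1, TopHat2 2.0.12 and Bowtie2 2.2.3 were used, with no role given. The FPKM formula, the annotation, strand and multiply mapped reads are not given in the sources used here. Per the labels' protocols, a Ribo-zero kit took out ribosomal RNA. Symbols came from a table of gene identifiers (26099 of 31870 matched), spelled as in the RefSeq table of assembly GRCz12tu; no sequences or coordinates were used.

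Each library's total was taken as the largest at which most of the 400 lowest FPKM values equal 1 read over a whole gene length. The totals found were whole numbers to within 0.0058 of a read, and between 92.0% and 94.2% of those values gave a whole gene length. The smallest whole reads that give all 4 values of a gene then served for exact (Clopper-Pearson, conditional binomial) 95% intervals, which are lower limits of the reads and cover counting error only. Differences were taken on log2(FPKM + 1), which understates changes of low genes, and called at 2-fold where the mean FPKM over the 4 libraries was 1 or more. Python 3.11.15, numpy 2.4.6, pandas 2.3.3 and scipy 1.17.1 were used. The calls and read recovery were tested on simulated reads with counting error only, which cannot show how calls behave under variation between embryos or libraries. Named genes are all members, up to 4 genes per list and comparison with the largest change past 2-fold, and topbp1, recql4, ticrr, chek1, rrm2 and e2f1. Other list genes named (dbf4b in WT, paics, rrm1, pole, rad9a, HUS1 in Mybx1, dna2 in WT, chtf8 in WT, dck in WT and tk2 in WT) were chosen after their values were seen. Members and lists were chosen with earlier results of these data known. Alternatives were 2 other scalings, 2 pseudocounts, 2 thresholds, 3 filters and 2 narrower member sets.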

Additional observations from a re-analysis of the deposited data

Results flagged for a closer look

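For 3 members the 6 hpf level lay below the 0 hpf level in the WT libraries and above it in the Mybx1 libraries, with both 95% counting intervals clear of equal levels. The difference between the genotypes was not tested, since each had 1 library per stage. For orc6 the ratio of the 6 hpf to the 0 hpf FPKM was 0.154 (0.133 to 0.178) in WT and 1.24 (1.16 to 1.32) in Mybx1. For cdc6 it was 0.929 (0.877 to 0.985) in WT and 1.17 (1.12 to 1.24) in Mybx1, and for pole3 0.539 (0.434 to 0.666) in WT and 1.14 (1.003 to 1.31) in Mybx1. With median-ratio scaling the WT changes on log2(FPKM + 1) were -1.92 for orc6, 0.63 for cdc6 and -0.15 for pole3, so cdc6 was then higher at 6 hpf in both genotypes.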

How the results depend on the processing

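Each count and median was recomputed with other scalings, pseudocounts, thresholds, filters and member sets. With TPM scaling 3 members rose in WT in place of 5, where 19.6% of all genes rose. With median-ratio scaling the member median in WT was -0.42, and 2 members were lower in Mybx1 at 0 hpf and 12 at 6 hpf. Of all genes, 6.59% were then lower at 0 hpf and 30.2% at 6 hpf. The member median at 6 hpf turned to -0.18, and the median stage change in Mybx1 minus that in WT was 0.037. A pseudocount of 5 left 3 falls in Mybx1 in place of 6, where 3.58% of all genes fell. At a threshold of 1.5-fold 16 members fell in Mybx1, where 17.27% of all genes fell. At 0 hpf, 2 members were then higher and 5 lower in Mybx1, where 17.96% of all genes were higher and 12.83% lower. At 6 hpf, 24 members were higher and 6 lower, where 49.89% of all genes were higher and 25.53% lower. At 3-fold, 2 members rose in WT, where 15.79% of all genes rose, and 1 fell in Mybx1, where 1.66% of all genes fell. Without the 2 identifiers that share the symbol mcm6, 1 member rose in Mybx1, where 7.81% of all genes rose. These shifts follow from the scaling, threshold or member set that each alternative changes. Across the other scalings and pseudocounts, none of the called member changes turned its sign. Filters on low values moved no count of members by over 1.5 times, but they moved the shares of all genes. With the cut-off at 5 FPKM 47.7% of all genes fell in WT, and with no filter 20.2%, in place of 40.9%. No paired analysis was possible because the groups share fewer than 2 replicate numbers, and with 1 library per group none could be left out of a comparison. A fit of genotype and stage as additive terms over the 4 libraries was not run. Depth limits pold4, mcm3 and the second mcm6 gene at 0 hpf, which had between 1 and 4 reads.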
